A study of Mus musculus with 10 samples.

Results

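The genes described here are the mouse translation initiation factors, taken as every gene of the deposited scRNA-seq matrix whose symbol is Eif followed by a digit and then only lower-case letters or digits. The rule found 56 of 28125 genes, and all 56 are also in the scATAC-seq matrix of 30670 genes. It is a rule on names, so it also takes in the 4 kinases that act on eIF2 (Eif2ak1 to Eif2ak4). Also taken in are 4 genes grouped here as repressors of eIF4E, the binding proteins Eif4ebp1 to Eif4ebp3 and the eIF4E transporter Eif4enif1. Eif2c5, which RefSeq lists as a long noncoding RNA, is taken in as well. The samples are testes of wild-type C57BL/6J mice aged 11, 17 or 25 dpp (days post-partum), and of Cre/+ or Nfya-CKO mice aged 8 weeks. Nuclei were profiled for RNA and open chromatin at once, and each condition gave 1 library of either kind. In Nfya-CKO mice, Stra8-Cre, an allele that makes Cre from the Stra8 locus in spermatogonia, removes part of floxed Nfya (Nfya fl/fl), and the Cre/+ mice carry the same Cre without the floxed gene. The deletion is thus aimed at germ cells. NFYA is the subunit of the transcription factor NF-Y that contacts CCAAT sequences in promoters.

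Initiation factors bring the small ribosomal subunit to the start codon of an mRNA. The eIF4F complex binds the cap at the 5′ end of the mRNA through eIF4E, unwinds it with the eIF4A helicase and is held together by the eIF4G scaffold, while eIF3 joins eIF4G to the ribosome. The eIF2 complex delivers the initiator tRNA, eIF2B recharges eIF2 with GTP, and eIF1, eIF1A, eIF5 and eIF5B act in start codon choice and subunit joining. In the testis, meiotic and haploid germ cells are known to store many mRNAs and to translate them later, so that control of initiation has a particular place in spermatogenesis.

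Values are the authors' means per cell population, pooled over libraries, given here as UMIs (counted RNA molecules) per 10000 UMIs of a population. The 9 germ cell populations are undifferentiated and differentiating spermatogonia (SpG), preleptotene spermatocytes (pL), 2 groups of early spermatocytes (eL/L/Z and L/Z/eP, from early leptotene to early pachytene), middle to late pachytene (mP/lP), diplotene (D) and 2 spermatid stages, round (RS) and elongating (ES). The others are SpG of the library labelled Nfya-CKO (written Nfya-CKO-labelled SpG), Sertoli cells, other somatic cells and 99 cells of unknown type. A population has 1 value per gene and no replicate, so no test was run, and a difference is described by its size alone. Conditions and populations also cannot be told apart where a population comes mainly from 1 library or from mice of 1 age range. Mice of 11 to 25 dpp gave 92.0% of undifferentiated SpG, 99.7% of pL, 98.6% of eL/L/Z and 97.2% of L/Z/eP. In L/Z/eP, 7583 of 8107 cells were from 25 dpp mice. The Cre/+ mice gave 84.5% of differentiating SpG, 77.0% of RS and 99.6% of ES, and the library labelled Nfya-CKO gave 78.8% of other somatic cells. RS against undifferentiated SpG thus also sets mostly 8-week-old Cre/+ mice against mostly 11 to 25 dpp mice. Fewer cells of a type within a population and less RNA per cell cannot be told apart either.

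Depth ranged from 491 cells (Nfya-CKO-labelled SpG) to 8107 cells (L/Z/eP) per population, apart from the unknown cells, and from a median of 1525 to 18361 UMIs per cell. At these depths 3 UMIs over all cells of a population, at its median depth, give a level of 0.000843 in Sertoli cells and of 0.0098 in ES, the extremes among the named populations. Libraries shared cell barcodes: 5030 of 39674 scRNA-seq barcodes occurred in more than 1 library, 3813 of them in both Cre/+ and Nfya-CKO. Of the 491 Nfya-CKO-labelled SpG, 175 carried the barcode of a cell in the Cre/+ library, and 143 of those cells were counted there as differentiating SpG, which is 15.4% of that population. Differentiating SpG also held RNA of spermatids, with 9.88 UMIs per 10000 summed over Prm1, Prm2, Tnp1 and Tnp2 against 0.511 in undifferentiated SpG. Values cannot be recomputed without the shared cells from the pooled matrix, and the part of shared cells in the results on any population was not tested. Defining markers were highest where the names place them for Zbtb16 (8.75 in undifferentiated SpG, at most 1.32 in the other control germ cells), Piwil1 (11.4 in mP/lP), Acrv1 (7.19 in RS) and Prm1 (40.8 in ES). Of the markers of differentiating SpG, Dmrtb1 was highest there at 1.04, but Kit and Stra8 were higher in pL, at 2.09 and 4.86 against 1.56 and 2.58. Other listed markers were highest elsewhere than their list's name, leaving out the cells of unknown type: Tex101, listed for RS, and Sycp3, listed for early spermatocytes, in mP/lP, Ovol2, listed for pachytene, in D, Clu, listed for Sertoli cells, in other somatic cells, and Gfra1, Uchl1 and Pecam1, the last listed for other somatic cells, in Nfya-CKO-labelled SpG.

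Since the study concerns a factor that contacts CCAAT, the promoters of the members were searched for CCAAT and its reverse complement ATTGG in RefSeq windows (GRCm38.p6) of 300 bases, from 250 before to 50 after a transcript start. The table held 57 windows for 44 of the 56 members, and 15 of these windows (26.3%) held a match, against 37.4% of all 32851 windows. Windows with at least 2 matches, 11.7% of all windows, were found for 4 members, Eif2ak3, Eif3f, Eif4a1 and Eif5. They are printed here with Eif1ax, because the first 3 recur in the results below and Eif1ax, which had no match, had the highest RNA ratio of Nfya-CKO-labelled to undifferentiated SpG. The Eif2ak3 window lies at chr6:70844265-70844564 on the plus strand, that of Eif3f at chr7:108934165-108934464 on the plus strand, that of Eif4a1 at chr11:69672374-69672673 on the minus strand, that of Eif5 at chr12:111537851-111538150 on the plus strand and that of Eif1ax at chrX:159371928-159372227 on the plus strand. Each covers promoter sequence and the first bases of the transcript, and capitals mark CCAAT or ATTGG.
Eif2ak3: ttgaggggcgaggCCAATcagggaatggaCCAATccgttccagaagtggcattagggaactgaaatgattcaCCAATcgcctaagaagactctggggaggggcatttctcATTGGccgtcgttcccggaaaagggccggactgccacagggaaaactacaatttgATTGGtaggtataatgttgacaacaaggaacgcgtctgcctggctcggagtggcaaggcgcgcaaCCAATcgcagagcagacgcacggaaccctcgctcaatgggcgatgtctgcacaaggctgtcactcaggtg
Eif3f: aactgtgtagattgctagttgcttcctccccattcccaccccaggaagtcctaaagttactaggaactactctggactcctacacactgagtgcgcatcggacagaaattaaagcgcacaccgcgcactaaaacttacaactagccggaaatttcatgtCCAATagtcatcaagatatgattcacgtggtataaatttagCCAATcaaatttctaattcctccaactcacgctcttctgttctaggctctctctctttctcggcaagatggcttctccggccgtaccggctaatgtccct
Eif4a1: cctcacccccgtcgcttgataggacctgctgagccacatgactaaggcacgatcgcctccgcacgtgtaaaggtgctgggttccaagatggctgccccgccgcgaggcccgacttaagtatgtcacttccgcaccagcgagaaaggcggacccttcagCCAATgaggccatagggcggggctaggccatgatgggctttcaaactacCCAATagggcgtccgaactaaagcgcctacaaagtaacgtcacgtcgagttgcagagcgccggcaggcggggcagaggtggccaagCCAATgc
Eif5: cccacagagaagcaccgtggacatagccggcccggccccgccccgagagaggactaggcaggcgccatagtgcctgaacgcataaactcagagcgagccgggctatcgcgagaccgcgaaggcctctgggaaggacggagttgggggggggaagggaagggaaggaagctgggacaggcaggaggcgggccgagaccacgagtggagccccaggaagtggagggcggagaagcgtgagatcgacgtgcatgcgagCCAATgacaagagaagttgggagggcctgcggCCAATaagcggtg
Eif1ax: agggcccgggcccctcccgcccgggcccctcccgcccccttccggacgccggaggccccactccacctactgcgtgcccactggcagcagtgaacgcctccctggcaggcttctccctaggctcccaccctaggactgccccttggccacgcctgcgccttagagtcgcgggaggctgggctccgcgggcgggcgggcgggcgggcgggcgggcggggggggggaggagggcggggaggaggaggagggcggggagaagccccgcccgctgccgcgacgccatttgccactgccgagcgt
The Eif2ak3 window held 6 matches, which 0.0792% of all windows reached, and Eif4a1 held 3, which 3.37% reached. Those of Eif3f began 91 and 50 bases before the start, and those of Eif4a1 began 92 and 43 bases before and 43 bases after it. In Eif5 both matches lay after the start, 5 and 37 bases from it. A match describes the letters alone and was not tested for binding here. The study mapped NFYA binding in sorted SpG by CUT&RUN, and its binding sites were not compared with these matches.

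The RNA of most members was highest before meiosis and lowest in RS. Of the 56 members, 53 had a mean of at least 0.05 over the 13 populations, as did 15250 genes in all, and these are the ones compared; Eif2c5, Eif3j2 and Eif4e1b did not. Among the 9 germ cell populations, 18 of the 53 were highest in undifferentiated SpG (19.2% of all genes compared), 11 in pL (17.8%) and 7 in differentiating SpG (5.66%). Fewer were highest later: 5 in eL/L/Z (4.73%), 2 in L/Z/eP (4.91%), 2 in mP/lP (11.3%), 0 in D (3.3%), 2 in RS (18.2%) and 6 in ES (15%). Together 36 of 53 were highest in one of these 3 populations, against 42.7% of all genes, and 35 were highest in undifferentiated SpG or pL when differentiating SpG were left out, against 40.5% of all genes, a choice made after the shared barcodes were seen. At the other end, 33 of 53 were lowest in RS, against 29.8% of all genes, 7 in ES (12.3%) and 6 in mP/lP (16%). Summed over the 56 members, RNA was 85.6 UMIs per 10000 in undifferentiated SpG, 75.1 in differentiating SpG, 87.1 in pL, 75.6 in eL/L/Z, 68.2 in L/Z/eP, 62.7 in mP/lP, 55.3 in D, 51.1 in RS and 58.1 in ES. The sum was thus lower at each stage than at the one before from pL to RS, and higher again in ES.

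**Figure D1:**
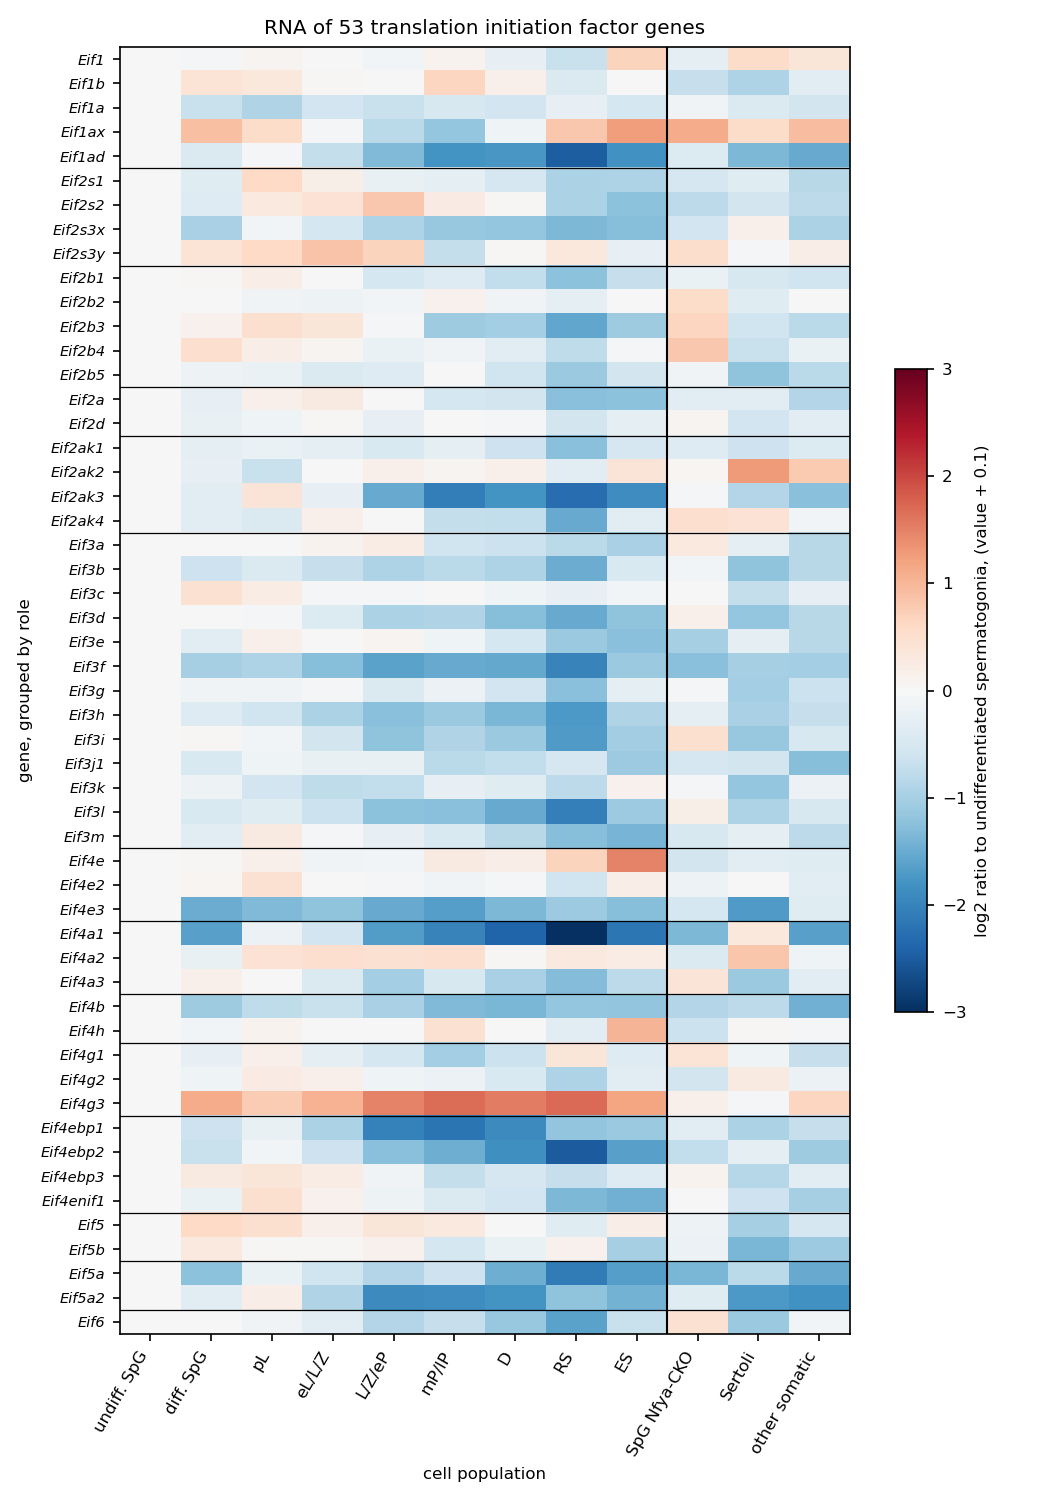
RNA of the 53 members compared, grouped by role (rows), in 12 cell populations (columns), as the log2 ratio to undifferentiated spermatogonia after adding 0.1 to each value; colours end at -3 and 3, and the vertical line separates the 9 control germ cell populations from the others. Most rows turn blue from L/Z/eP on and are darkest in RS, while Eif4g3, Eif4e and Eif1ax have red cells among the late stages.

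In mP/lP, 15 of 53 members were at least 2-fold lower than in undifferentiated SpG, against 20.8% of all genes, and 1 was at least 2-fold higher, against 13.9%. The median member was at a log2 ratio of -0.52, and the median gene at -0.14. With a pseudocount of 0.5 in place of 0.1 the first count was 4, against 7.2% of all genes. In RS, 28 of 53 members were at least 2-fold lower than in undifferentiated SpG, against 26.7% of all genes, and 1, Eif4g3, was at least 2-fold higher, against 22.4%. The median member was at -1.11 there, which is 0.464 of its level in undifferentiated SpG, and the median gene at -0.27. Measured relative to that median gene, 18 members were at least 2-fold lower in RS, against 19.0% of all genes. The count in RS thus depended on the scaling, and it was 10, against 9.8% of all genes, with a pseudocount of 0.5.

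Step by step, few members passed 2-fold. From undifferentiated to differentiating SpG 5 members were at least 2-fold lower (6.28% of all genes) and 1 higher (9.57%); from differentiating SpG to pL 2 were higher (1.27%) and 0 lower (10.9%). The 2 members higher in pL, Eif4a1 and Eif5a, were among the 5 lower in differentiating SpG, with Eif3f, Eif4b and Eif4e3. From undifferentiated SpG directly to pL 1 member, Eif4e3, was at least 2-fold lower (6.19%) and 0 higher (2.42%). From pL to eL/L/Z 1 member was lower (0.59%), Eif5a2, and 0 were higher (4.41%). In L/Z/eP 4 members were at least 2-fold lower than in eL/L/Z (3.97%) and 0 higher (5.45%), namely Eif2ak3, Eif4a1, Eif4ebp1 and Eif5a2. From L/Z/eP to mP/lP 2 were lower (3.54%), Eif2b3 and Eif2s3y. Eif1ax alone was at least 2-fold higher from mP/lP to D (4.92%), and Eif4g1 alone from D to RS (10.6%). No member was at least 2-fold lower from D to RS (3.34%), although 40 of 53 were lower by some amount, against 63.0% of all genes, and the median log2 ratio was -0.46, against -0.17. From RS to ES 4 members were at least 2-fold higher (10.1%), Eif4h, Eif1, Eif2ak4 and Eif3b, and 1 lower (10%), Eif5b. The median log2 ratio of that last step was 0.46, against 0.13 over all genes. Somatic markers moved with it. Summed over the Sertoli markers Sox9, Wt1, Clu and Amh, RNA was 35.7 in ES and 3.63 in RS. Most of both sums was Clu, at 31.3 and 2.90. Sox9 was at 1.90 and 0.299, Wt1 at 2.46 and 0.424, and Amh at 0.0044 and 0.0064. Insl3, a gene of Leydig cells, was at 3.81 and 0.527, and the listed markers of other somatic cells, Insl3 among them, summed to 4.39 and 0.883. Of that list Pecam1 alone was lower in ES, at 0.0445 against 0.0758. The part of such RNA in the step was not tested.

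**Figure D2:**
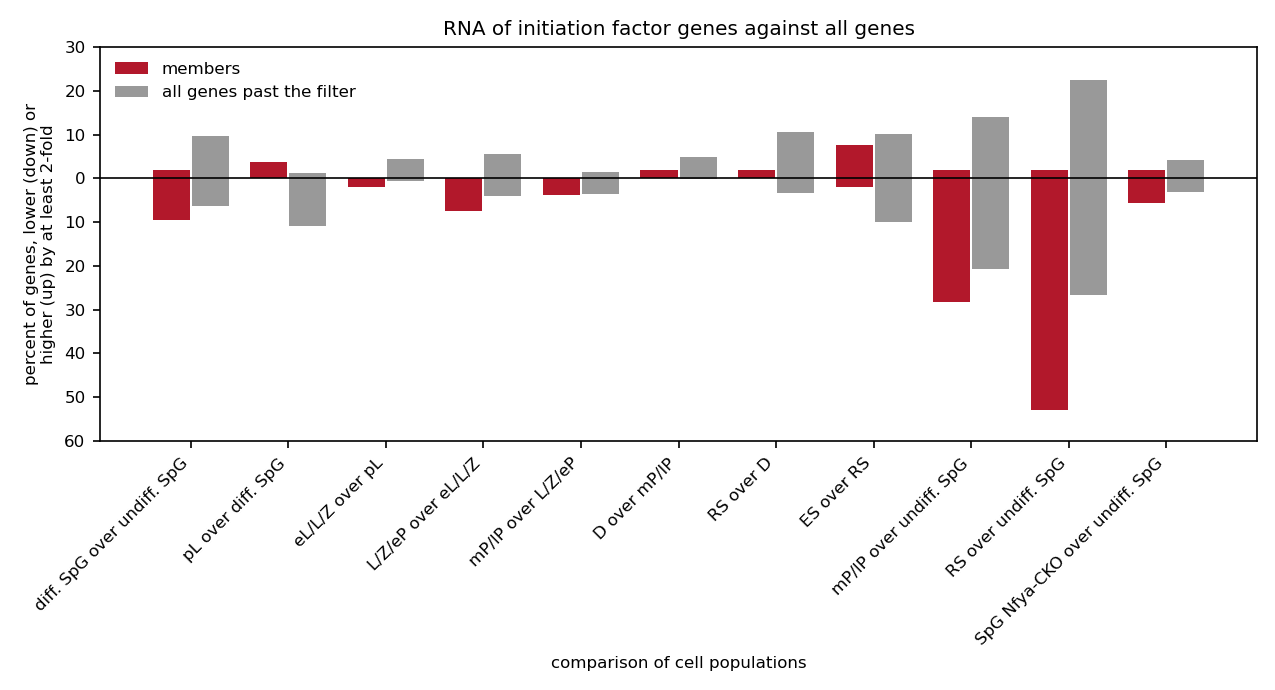
Percent of genes at least 2-fold higher (bars up) or lower (bars down) in each comparison of 2 cell populations (horizontal axis), for the 53 members (red) and for the 15250 genes compared (grey). In RS over undifferentiated spermatogonia 52.8% of members and 26.7% of all genes lie below 0, while above 0 the members reach at most 7.55%.

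The eIF4G scaffolds differed in course. Eif4g3, a scaffold that resembles Eif4g1 and whose loss is known to arrest male meiosis, was at 2.01 in undifferentiated SpG, 4.45 in differentiating SpG, 3.46 in pL, 4.25 in eL/L/Z, 5.83 in L/Z/eP, 6.63 in mP/lP, 6.04 in D, 6.76 in RS and 4.66 in ES. It was lowest in undifferentiated SpG and stayed high from L/Z/eP to RS. Eif4g1, the main scaffold, was at 4.39, 3.66, 4.92, 3.55, 2.99, 2.11, 2.79, 5.70 and 3.34 in the same order, with its lowest value in mP/lP and its highest in RS. The ratio of Eif4g3 to Eif4g1 counts was therefore 0.459 in undifferentiated SpG, 3.15 in mP/lP and 1.19 in RS; counts of 2 genes also depend on their length, so the course of the ratio is described and not its size. Eif4g2, a related protein that lacks the eIF4E site, was highest in pL at 3.21 and lowest in RS at 1.37. In sum over the 3 genes, eIF4G was 9.08 in undifferentiated SpG and 13.8 in RS, the only role group whose sum was higher in RS than in undifferentiated SpG apart from eIF4E.

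The eIF4A helicases differed in course too. Eif4a1, the helicase of eIF4F, was at 5.86 in undifferentiated SpG, 1.81 in differentiating SpG, 5.13 in pL, 3.92 in eL/L/Z, 1.76 in L/Z/eP, 1.38 in mP/lP, 1.04 in D, 0.568 in RS and 1.23 in ES. With 0.1 added, its highest and lowest germ cell values differed 8.92-fold from undifferentiated SpG to RS, the widest range of the 53 members up to RS, and it was higher still in Sertoli cells, at 7.34. Eif4a2, a close paralog, was at 0.498, 0.410, 0.710, 0.747, 0.721, 0.746, 0.517, 0.632 and 0.6, a range of 1.66-fold with 0.1 added. The ratio of Eif4a1 to Eif4a2 was 11.8 in undifferentiated SpG, 7.23 in pL, 2.44 in L/Z/eP and 0.899 in RS. Eif4a3, which belongs to the exon junction complex rather than to eIF4F, was highest in differentiating SpG at 1.60 and lowest in RS at 0.522. Of the helpers of eIF4A, Eif4b was highest in undifferentiated SpG at 3.19 and was 1.20 in mP/lP, and Eif4h was highest in ES at 2.65 and lowest in RS at 0.981.

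Among the cap-binding proteins, Eif4e was at 1.34 in undifferentiated SpG, 1.37 in differentiating SpG, 1.5 in pL, 1.23 in eL/L/Z, 1.27 in L/Z/eP, 1.63 in mP/lP, 1.57 in D, 2.19 in RS and 3.94 in ES. It was nearly level up to D and higher in both spermatid populations. Eif4e2, a cap-binding protein known as a repressor, ranged from 0.469 in RS to 1.08 in pL. Eif4e3 was at 0.268 in undifferentiated SpG and at most 0.0715 in the other control germ cells. Eif4e1b, known from oocytes, was between 0.00204 and 0.0248 in germ cells, near the level of a few UMIs. Of the proteins that hold eIF4E back, Eif4ebp1 and Eif4ebp2 were lower at every stage from eL/L/Z to ES than in undifferentiated SpG. Eif4ebp1 was at 0.556 in undifferentiated SpG, at 0.0622 by L/Z/eP and then at 0.0440 in mP/lP, and Eif4ebp2 at 3.33, 1.35 and 1.13. Both are known to release eIF4E when phosphorylated by mTOR. Eif4ebp2 went on to 0.506 in RS, where Eif4ebp1 was at 0.189. Eif4ebp3 had its highest value in pL at 0.884 and its lowest in mP/lP at 0.367, and Eif4enif1, the eIF4E transporter, was at 1.47 in pL and 0.309 in ES. Early in meiosis, in eL/L/Z, Eif4ebp3 was still above its level in undifferentiated SpG, at 0.804 against 0.670. So was Eif4enif1, at 1.11 against 1.02. All 4 were lower in mP/lP than in undifferentiated SpG, as were 41 of all 53 members and 55.9% of all genes. At least 2-fold lower were 2 of the 4, against 15 of 53 members and 20.8% of all genes.

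**Figure D3:**
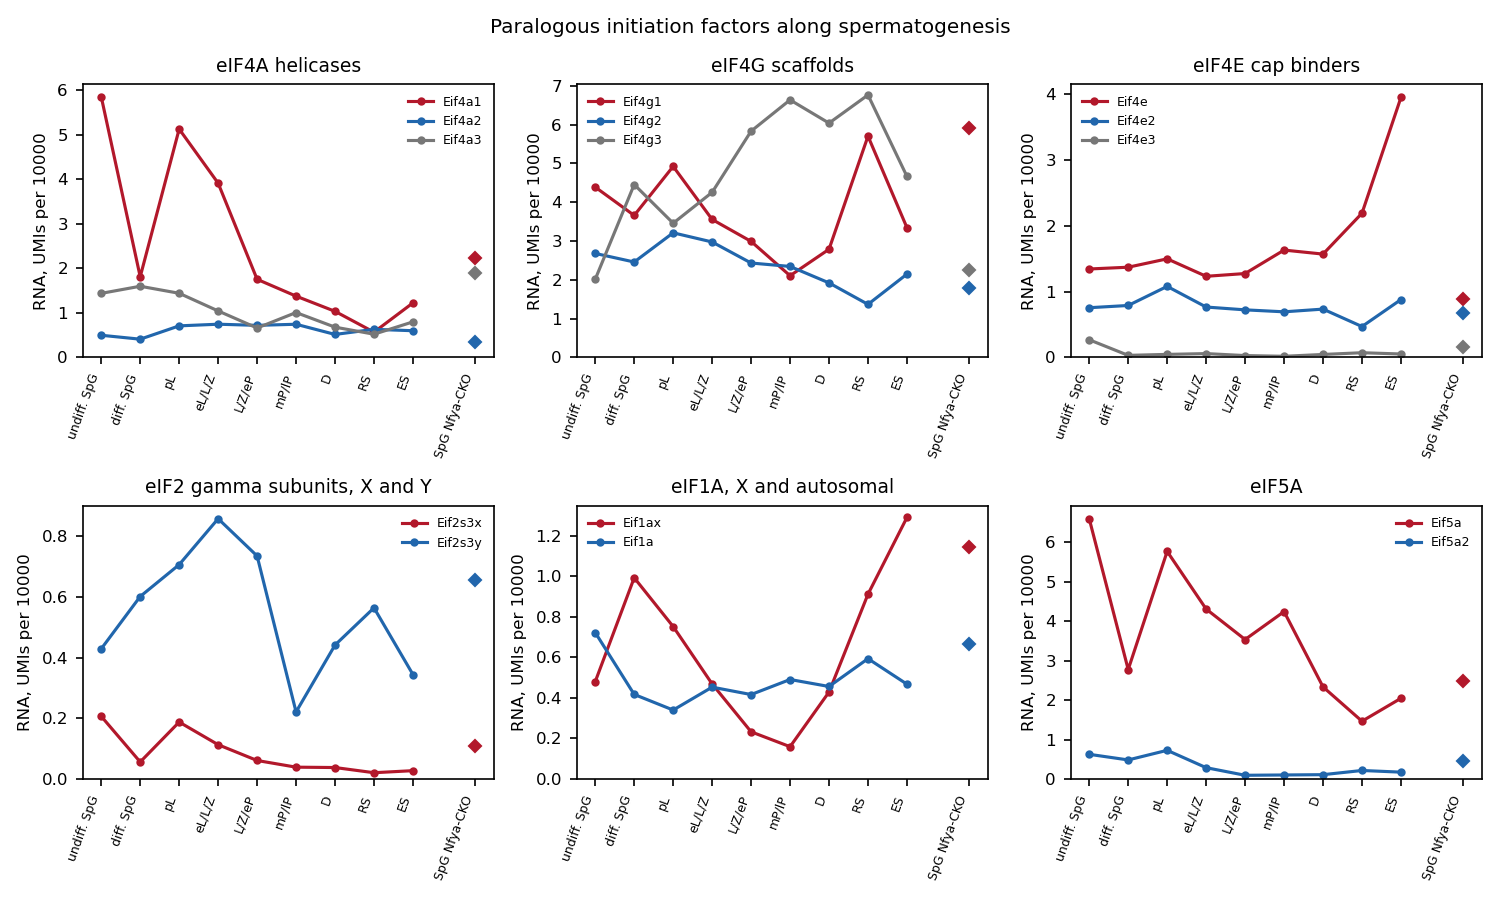
RNA in UMIs per 10000 (vertical axes, each from 0) of 6 sets of related members in the 9 control germ cell populations (lines) and in Nfya-CKO-labelled SpG (diamonds), with 1 pooled value per point. Eif4a1 goes from 5.86 to 0.568 while Eif4a2 stays between 0.410 and 0.747, Eif4g3 is above Eif4g1 in differentiating spermatogonia and from eL/L/Z on, and Eif1ax and Eif2s3y have their lowest values in mP/lP.

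Of the 3 members on the sex chromosomes that were compared, 2 had their lowest germ cell value in mP/lP, the stage at which X and Y are known to be silenced, as had 47.2% of 487 X-linked genes, 50% of 8 Y-linked genes and 16% of all genes. Eif1ax, on the X chromosome, makes eIF1A, which scans for the start codon, and was at 0.481 in undifferentiated SpG, 0.993 in differentiating SpG, 0.752 in pL, 0.469 in eL/L/Z, 0.233 in L/Z/eP, 0.159 in mP/lP, 0.429 in D, 0.912 in RS and 1.29 in ES. It was lowest in mP/lP and higher than at the start in both spermatid populations. Its autosomal paralog Eif1a was at 0.723, 0.417, 0.340, 0.453, 0.417, 0.491, 0.456, 0.594 and 0.468 in that order, with no low point in mP/lP. The ratio of Eif1ax to Eif1a was 0.324 in mP/lP and 2.76 in ES. From mP/lP to RS, Eif1ax had a log2 ratio of 1.96, when the median of 487 X-linked genes was 0.18 and 17.9% of them were at least 2-fold higher.

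The gamma subunit of eIF2, the part that binds GTP and the initiator tRNA, is made by an X-linked and a Y-linked gene. Eif2s3y, the Y-linked copy and a gene known to be needed for spermatogonial proliferation, was at 0.429 in undifferentiated SpG, 0.602 in differentiating SpG, 0.707 in pL, 0.858 in eL/L/Z, 0.735 in L/Z/eP, 0.221 in mP/lP, 0.442 in D, 0.564 in RS and 0.344 in ES. The value in mP/lP was its lowest, and that in RS lay above the starting level. Eif2s3x, the X-linked copy, was at 0.207, 0.0560, 0.188, 0.113, 0.0608, 0.0388, 0.0376, 0.0205 and 0.0273, with no such return. From undifferentiated SpG to mP/lP the log2 ratios were -1.16 for Eif1ax and -1.14 for Eif2s3x, against medians of -0.99 over X-linked genes and -0.14 over 13596 autosomal genes, and 49.3% of X-linked genes were at least 2-fold lower. With a pseudocount of 0.5 these ratios were -0.57 and -0.39, no longer 2-fold. The autosomal subunits differed from each other as well. Eif2s2, the beta subunit, was highest in L/Z/eP at 5.16 and lowest in ES at 1.19, and Eif2s1, the alpha subunit that the stress kinases phosphorylate, was highest in pL at 1.19 and lowest in RS at 0.338.

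Of the other scanning factors, Eif1, which guards start codon choice, was between 0.826 in RS and 1.49 in mP/lP up to RS and at 2.24 in ES. Its paralog Eif1b was highest in mP/lP at 2.39 and lowest in RS at 1.07. Eif1ad, placed in the eIF1 and eIF1A group here by its name and not as a known scanning factor, was at 1.72 in undifferentiated SpG and 0.228 in RS. That was the widest range of the group up to RS. Eif5, which makes eIF2 hydrolyse GTP, ranged from 2.86 in RS to 5.67 in differentiating SpG, and Eif5b, which joins the ribosomal subunits, from 3.42 in ES to 8.49 in differentiating SpG. Neither gene was 2-fold apart between undifferentiated SpG and mP/lP or RS.

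The 5 subunits of eIF2B, the exchange factor of eIF2, were all lower in RS than in undifferentiated SpG, as were 46 of all 53 members and 58.1% of all genes. At least 2-fold lower were 3 of the 5, against 28 of 53 members and 26.7% of all genes. Eif2b3 had the widest range, at 0.797 in undifferentiated SpG, 1.15 in pL, 0.781 in L/Z/eP, 0.329 in mP/lP and 0.206 in RS. Eif2b2 had the narrowest range of all 53 members up to RS, between 0.168 in RS and 0.256 in mP/lP. Of the kinases that phosphorylate eIF2 and so slow initiation under stress, Eif2ak3 (PERK, which responds to stress of the endoplasmic reticulum) was at 0.650 in undifferentiated SpG, 0.506 in differentiating SpG, 0.888 in pL, 0.534 in eL/L/Z, 0.162 in L/Z/eP, 0.0777 in mP/lP, 0.116 in D, 0.0549 in RS and 0.105 in ES. The largest step down lay between eL/L/Z and L/Z/eP. Eif2ak1 (HRI, which senses heme) ranged from 0.489 in RS to 1.31 in undifferentiated SpG, Eif2ak4 (GCN2, which senses uncharged tRNA) from 0.114 in RS to 0.584 in eL/L/Z, and Eif2ak2 (PKR, which senses double-stranded RNA) from 0.0695 in pL to 0.251 in ES. Eif2a and Eif2d, which can bring tRNA to the ribosome without eIF2, were highest in eL/L/Z at 0.877 and 0.281 and lowest in RS at 0.239 and 0.152.

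The subunits of eIF3, the largest initiation complex, mostly shared a direction. Of 14 members 13 were compared, and all 13 were lower in RS than in undifferentiated SpG, as were 46 of all 53 members and 58.1% of all genes. At least 2-fold lower were 9 of the 13, against 28 of 53 members and 26.7% of all genes. Their log2 ratios ran from -2.06 for Eif3l to -0.25 for Eif3c, with a median of -1.29. Eif3a, the scaffold of the complex, was at 2.64 in undifferentiated SpG, 3.10 in L/Z/eP, 1.70 in mP/lP and 1.46 in RS, and Eif3l was at 2.21, 0.883, 0.859 and 0.453. Eif3a was thus near its starting level in L/Z/eP when Eif3l was far below it. Eif3h was likewise at 1.86 in undifferentiated SpG and 0.718 in L/Z/eP, and Eif3i at 2.29 and 0.943. In mP/lP 3 of 13 were at least 2-fold lower, Eif3f, Eif3l and Eif3h, a share near the 20.8% of all genes. Eif3j2 is a near copy of Eif3j1. The authors' alignment kept reads with a single place in the genome, so values of these genes, and of any with near-identical copies elsewhere, are uncertain.

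Eif5a, the factor that carries the hypusine modification and helps the ribosome over difficult stretches, was at 6.60 in undifferentiated SpG, 2.78 in differentiating SpG, 5.77 in pL, 4.31 in eL/L/Z, 3.54 in L/Z/eP, 4.24 in mP/lP, 2.33 in D, 1.46 in RS and 2.05 in ES. Its low value in differentiating SpG stands between high values in the neighbouring stages, as for Eif4a1. Differentiating SpG were 84.5% from 8-week-old Cre/+ mice, while 92.0% of undifferentiated SpG and 99.7% of pL were from 11 to 25 dpp mice. Stage, age and library cannot be told apart there. Eif5a2, the paralog of Eif5a, was at 0.624, 0.482, 0.726, 0.286, 0.0926, 0.1, 0.108, 0.214 and 0.172, with most of its decrease between pL and L/Z/eP. The ratio of Eif5a to Eif5a2 was 10.6 in undifferentiated SpG, 42.3 in mP/lP and 6.83 in RS. Eif6, which keeps the large ribosomal subunit from joining too early, was at 0.907 in undifferentiated SpG and 0.231 in RS. Eif2c5 was at 0.1 in undifferentiated SpG and at most 0.0374 in the other control germ cells.

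In Sertoli cells, 12 of 53 members were at least 2-fold lower than in undifferentiated SpG (16.9% of all genes) and 1 was higher (10.1%). That gene was Eif2ak2, at 0.557 in Sertoli cells and 0.169 in undifferentiated SpG. Over the 9 control germ cell populations, Nfya-CKO-labelled SpG, Sertoli cells and other somatic cells, 5 members were highest in a somatic population, against 21.9% of all genes, and all 5 were highest in Sertoli cells (Eif2ak2, Eif2s3x, Eif4a1, Eif4a2 and Eif4g2). Over the same 12 populations, 12 of 53 members were highest in Nfya-CKO-labelled SpG, against 13.2% of all genes. Sertoli cells were at 59.5 and other somatic cells at 52.3 UMIs per 10000 summed over the 56 members, close to the sums in ES and RS. Sertoli cells were 99.9% from 11 to 25 dpp mice.

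Accessibility of the same genes varied far less than their RNA. The scATAC-seq values are the authors' signal per gene for the same populations, on the same scale; the study's methods define promoter accessibility by a short window around the transcription start, but whether the matrix counts that window is not stated, and mitochondrial genes took 31.2% of the signal in pL and 63.8% in L/Z/eP, the extremes among germ cells. Values were therefore also rescaled over the other genes. Over the 8 germ cell populations from undifferentiated SpG to RS, rescaled values of 53 members with a mean of at least 0.05 differed by a median of 1.41-fold between their highest and lowest population, against 1.77-fold over 18227 genes, while RNA of the 53 members compared above differed by 2.71-fold, against 2.79-fold over all genes. ES were left out there because only 124 cells had scATAC-seq data. A range of at least 2-fold was found for 4 members, against 41.0% of all genes. Undifferentiated SpG had the lowest rescaled accessibility for 27 of 53 members, against 22.5% of all genes. Eif4a1 had 1.26 in undifferentiated SpG, 1.61 in pL, 1.79 in mP/lP and 1.71 in RS, with its lowest germ cell value in undifferentiated SpG, where its RNA was highest. Eif4g3 had 0.618, 0.781, 0.914 and 1.04 in the same order, with its highest value in RS, as in RNA. Across the 9 populations the median Spearman correlation of RNA with rescaled accessibility was 0.067 over 53 members and 0.33 over 15238 genes, which share nuclei and libraries; it was 0.83 for Eif4g3 and -0.63 for Eif4a1. Without ES and over genes past both filters, a choice made after the values were seen, which leaves out Eif4g1 with its signal of 0.03 in undifferentiated SpG, the medians were 0.083 over 52 members and 0.38 over 13509 genes.

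SpG of the library labelled Nfya-CKO were compared with undifferentiated SpG, the control population with the highest Zbtb16 and Gfra1, to see whether RNA or accessibility of the members differed where NFYA is to be removed. The targeted gene does not bear out the label at the RNA level: Nfya was at 1.11 UMIs per 10000 in Nfya-CKO-labelled SpG, 0.456 in undifferentiated SpG and 0.667 in differentiating SpG. Reads of exons outside the deletion count too, so this is no check of the deletion. At the protein level, the study reports that NFYA was depleted from germ cells of Nfya-CKO testes, by western blot and immunohistochemistry. Zbtb16 was at 4.15 and Gfra1 at 1.20 in Nfya-CKO-labelled SpG, against 8.75 and 1.08 in undifferentiated SpG. Their median depth was 18361 UMIs, against 9290, and their median mitochondrial share 0.354%, against 0.904%. They also held RNA of Leydig cells: Insl3 was at 39.8, against 0.064, and the 8 markers of other somatic cells summed to 41.5, against 0.45, with Acta2 at 0.0955, Myh11 at 0.0606 and Dcn at 0.177. The 4 Sertoli markers summed to 24.3, against 3.67, of which Clu was 22.8, against 2.50, and Amh was at 0.0116, against 0.0431. The part of such RNA in the results was not tested. Age differs as well, 8 weeks against mostly 11 to 25 dpp, and cannot be told apart from genotype.

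In RNA, 3 of 53 members were at least 2-fold lower in Nfya-CKO-labelled SpG, against 3.08% of all genes, and 1 was at least 2-fold higher, against 4.09%. The median log2 ratio was -0.15 for members and 0.01 for all genes, and 34 of 53 members were below 1, against 49.1% of all genes. Eif5a was at 2.48 in Nfya-CKO-labelled SpG and 6.60 in undifferentiated SpG, a log2 ratio of -1.38. Eif4a1 was at 2.24 and 5.86, a log2 ratio of -1.35, and Eif3f was at 0.455 and 1.22, a log2 ratio of -1.25. These 3 members are a translation factor, a helicase and an eIF3 subunit, and no other member passed 2-fold downwards. Eif3e at -0.99 and Eif4b at -0.88 came next. On the other side Eif1ax was at 1.15 and 0.481, a log2 ratio of 1.10, followed by 3 subunits of eIF2B, Eif2b4 at 0.81, Eif2b3 at 0.65 and Eif2b2 at 0.55 (log2), and by Eif2s3y at 0.52.

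Against differentiating SpG, which were mostly from 8-week-old Cre/+ mice, the same genes gave other values. Eif4a1 was at 1.81 there, so that its log2 ratio turned to 0.29, and Eif4b turned from -0.88 to 0.19. Eif5a was at -0.16, Eif3f at -0.25, Eif3e at -0.67 and Eif1ax at 0.19 on the log2 scale. In this comparison 1 member was at least 2-fold lower, Eif1b at -1.11 (10.5% of all genes), 0 were higher (6.86%), and the median log2 ratio of members was 0.08. Against the mean of both control populations 0 were lower (6.29%) and 0 higher (3.04%), with a median of -0.16. The part in it of the 15.4% of differentiating SpG that share a barcode with Nfya-CKO-labelled SpG was not tested.

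**Figure D4:**
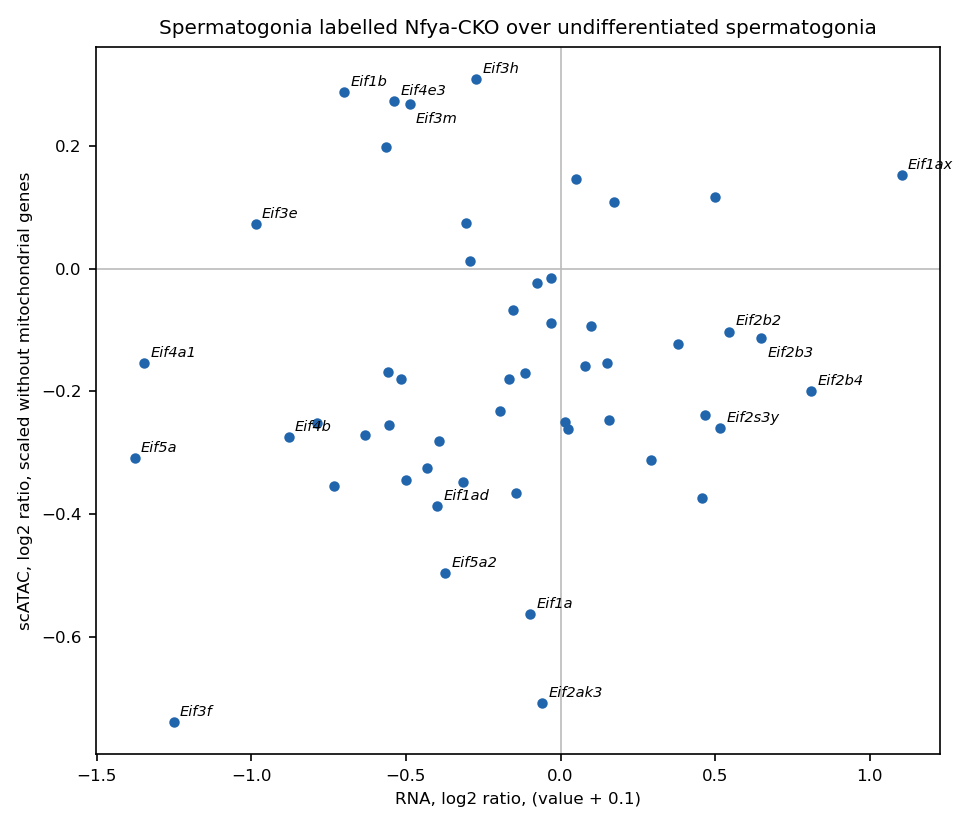
Log2 ratio of Nfya-CKO-labelled SpG over undifferentiated spermatogonia in RNA (horizontal axis, 0.1 added to each value) and in scATAC-seq signal rescaled without mitochondrial genes (vertical axis), for the 52 members past both filters, 1 point per gene. Most points lie below 0 on the vertical axis, Eif3f is low on both axes, Eif2ak3 is low in accessibility alone, and Eif5a and Eif4a1 are low mainly in RNA.

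Accessibility of the members was lower in Nfya-CKO-labelled SpG, by a small amount. On the deposited scale the median log2 ratio was -0.32 over 53 members and -0.14 over all genes, and 45 of 53 members were below 1, against 65.1% of all genes. Mitochondrial genes took 46.0% of the signal in Nfya-CKO-labelled SpG and 40.6% in undifferentiated SpG, and rescaling without them moved the median of all genes to -0.0016 and that of members to -0.18, with 40 of 53 members below 1, against 50.2% of all genes. No member was at least 2-fold lower on either scale, against 0.845% of all genes as deposited and 0.532% when rescaled, and none was at least 2-fold higher, against 0.384% and 0.938%. The mean TSS enrichment per cell, a measure of signal quality, was 7.99 in Nfya-CKO-labelled SpG and 12.7 in undifferentiated SpG, and its part in these ratios was not tested.

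Eif3f had the lowest ratio, with a rescaled log2 ratio of -0.74 and a deposited signal of 0.173 in Nfya-CKO-labelled SpG, 0.318 in undifferentiated SpG and 0.423 in differentiating SpG. Its RNA ratio was the third lowest of the members. Eif2ak3, the PERK kinase, came next at -0.71, with a signal of 0.324, 0.583 and 0.754 in these populations, and its RNA hardly differed, at 0.620 and 0.650 UMIs per 10000. Eif1a at -0.56, Eif5a2 at -0.50 and Eif1ad at -0.39 followed. The highest rescaled log2 ratios were 0.32 for Eif2c5, 0.31 for Eif3h, 0.29 for Eif1b and 0.27 for both Eif4e3 and Eif3m, and the last 4 of these were lower in RNA. Against differentiating SpG, Eif1b and Eif3m turned to -0.33 and -0.16, while Eif3h was at 0.22, Eif4e3 at 1.10 and Eif2c5 at 1.31. Of 52 members past both filters, 26 were lower in both assays, 14 lower in rescaled accessibility alone, 8 lower in RNA alone and 4 higher in both. Over 13509 genes these shares were 30.1%, 27.5%, 18.5% and 23.8%. Against differentiating SpG the median rescaled log2 ratio of members was -0.48, against 0.07 over all genes, with 2 members at least 2-fold lower (3.7% of all genes) and 3 higher (18.8%). As deposited, the median was -0.75, against -0.20 over all genes, with 10 members lower (9.89%) and 1 higher (11.7%).

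The 4 members with at least 2 matches to CCAAT or ATTGG had rescaled log2 ratios from -0.74 (Eif3f) to -0.15 (Eif4a1), with a median of -0.54, and the 1967 genes with at least 2 matches had a median of -0.21, with 73.8% of them below 1. The 15 members with at least 1 match had a median of -0.25 and 13 of them were below 1 (59.8% of all genes with a match), while the 28 members without a match had a median of -0.18 and 21 of them were below 1 (46.5% of all genes without). Over all genes the medians were -0.08 with a match and 0.03 without. Eif2ak3 and Eif3f, with 6 and 2 matches, were the 2 lowest members, but Eif4a1, with 3, ranked 31 of 53 from the lowest and Eif1ad, with none in its window, was the fifth lowest. In RNA the medians of members with and without a match were -0.14 and -0.16 on the log2 scale. That of the 4 members with at least 2 matches was -0.70, against -0.11 over all genes with as many. Eif4a1 was at -1.35, Eif3f at -1.25, Eif5 at -0.14 and Eif2ak3 at -0.06. With differentiating SpG as the control these were 0.29, -0.25, -0.74 and 0.25. Eif1a is not in the promoter table.

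**Figure D5:**
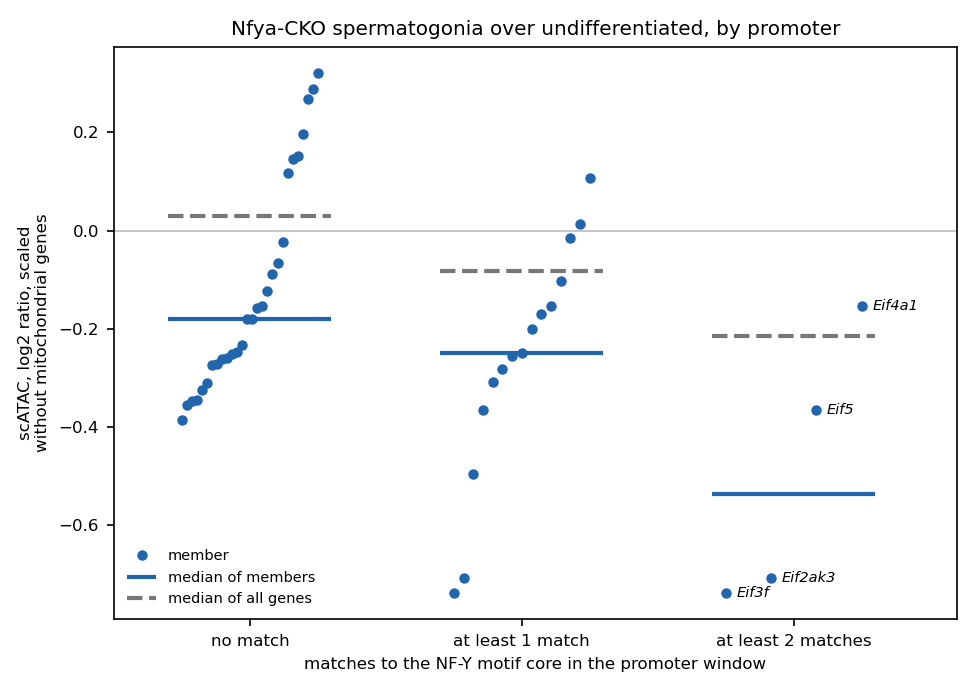
Log2 ratio of scATAC-seq signal, rescaled without mitochondrial genes, in Nfya-CKO-labelled SpG over undifferentiated spermatogonia (vertical axis), for members by the number of matches to the NF-Y core in a promoter window (horizontal axis); the group with at least 2 matches is part of that with at least 1. Points are members, solid lines their medians (-0.18, -0.25 and -0.54) and dashed lines the medians of all genes (0.03, -0.08 and -0.21).

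Other genes of translation were taken as lists from outside the naming rule. Of 41 listed genes 40 were compared, and in RS 17 were at least 2-fold lower than in undifferentiated SpG (26.7% of all genes) and 4 higher (22.4%). Of 7 compared genes of the elongation list, 5 were at least 2-fold lower in mP/lP (20.8% of all genes), Eef1a1, Eef1b2, Eef1g, Eef2 and Eef2k. The last makes a kinase of eEF2 and no elongation factor, and was at a log2 ratio of -1.83. Eef1a1, which brings aminoacyl-tRNA to the ribosome, was at 22.0 in undifferentiated SpG, 12 in pL, 5.10 in mP/lP and 1.49 in RS. Eef2, the translocase, was at 8.89, 4.50, 2.48 and 1.33, and Eef1d was at 2.6 in undifferentiated SpG, 4.73 in RS and 11.3 in ES. Of 8 listed genes for poly(A)-binding proteins and their partners, 3 were at least 2-fold higher in mP/lP (13.9% of all genes), Pabpc2, Pabpc6 and the partner Paip1. Lower was 1 (20.8%), Pabpc4, at 0.519 in undifferentiated SpG and 0.0745 in mP/lP. The median log2 ratio over the 8 was 0.08. The main form Pabpc1 was at 15.5 in undifferentiated SpG and 18.3 in mP/lP. Of 4 genes of mRNA storage, 2 were at least 2-fold higher in mP/lP (13.9%) and 1, Ddx6, lower (20.8%), at 3.79 in undifferentiated SpG and 1.46 in mP/lP. Ybx2, a protein of germ cells that holds mRNA untranslated, was at 2.44 in undifferentiated SpG and 35.3 in mP/lP, and the helicase Ddx25 at 0.762 and 2. Of 8 genes that signal to initiation and 4 of the stress response, 1 and 2 were at least 2-fold lower in mP/lP (20.8% of all genes), Tsc2, Ppp1r15a and Ppp1r15b, at log2 ratios of -2.01, -2.77 and -2.06, while Mtor was at -0.46. In Nfya-CKO-labelled SpG 7 of the 40 were at least 2-fold lower (3.08% of all genes) and 0 higher (4.09%). They were Eef1a1, Eef2, Pabpc1, Ppp1r15b, Ybx1, Ybx2 and Ddx25. Eef1a1 had the lowest log2 ratio of them, -3.54, at 1.80 UMIs per 10000 in Nfya-CKO-labelled SpG, and it was at 2.76 in differentiating SpG. Against differentiating SpG 4 of the 40 were at least 2-fold lower, a share near the 10.5% of all genes, and 0 higher (6.86%). There Eef2 turned from -1.07 to 0.21, Eef1a1, Pabpc1, Ppp1r15b and Ybx1 lay between -0.59 and -0.51, and Ybx2 and Ddx25 were at -4.15 and -1.02 on the log2 scale. The other two of the 4 were Pabpc2, at 0.00367 in Nfya-CKO-labelled SpG and 0.526 in differentiating SpG, and Pabpc6, at 0.00975 and 0.301. Markers of later stages were lower with them: the sum over the pachytene list was 0.542 in Nfya-CKO-labelled SpG and 3.97 in differentiating SpG, and that over the elongating spermatid list 0.103 and 9.88. Their part in these values was not tested.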

How the data were processed

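RNA and open chromatin of testis nuclei were measured with BD Rhapsody, in 5 conditions with 1 library per assay. Per the submitters' processing notes, the authors used STAR 2.7.10b, BWA 0.7.12, bedtools 2.27.1, Seurat 5.2.1 and ArchR 1.0.3 with mm10. Per the study's methods they kept uniquely mapped RNA reads and filtered cells and doublets. They deposited counts of UMIs and fragments per cell, the percent of mitochondrial UMIs, and TSS enrichment, a ratio. The deposited gene matrices hold, as found from the values, the natural log of 1 plus a mean summing to 10000 per population; 22 other table columns were not used.

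Values were transformed back with Python 3.11.15, numpy 2.4.6 and pandas 2.3.3. RNA was compared as the log2 ratio of value + 0.1 where the mean of a gene over 13 populations reached 0.05, and scATAC-seq without a pseudocount. Calls of 2-fold rest on size alone; without replicates no p-value was computed, and the depth of each population gives counting precision only. The ratio scripts were tested on simulated data with known folds, which covers counting error only.

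Members and lists were chosen with earlier results of these data known. Named genes were paralog sets, per role group the highest member and that of the widest range, and the 5 largest changes each way in Nfya-CKO for each assay; other genes, and the comparison of RS with undifferentiated SpG, were added after values were seen. Alternatives covered pseudocounts, filters, scaling, the fold, the gene rule and the control population.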

Additional observations from a re-analysis of the deposited data

How the results depend on the processing

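Of the comparison values recomputed under the alternatives, 222 stayed within 1.5 times the count, or within the interval of the median, and 54 did not; the cause was not tested beyond what each setting itself does. The share of all genes under the same setting stands in brackets. With a pseudocount of 0.05, 4 members were at least 2-fold higher from differentiating SpG to pL (2.12%), 1 was lower (5.32%) and 2 higher (12.4%) from D to RS, and 7 were higher from RS to ES (13.8%). With 0.5, which shrinks ratios of low genes, 2 were lower (1.86%) and 0 higher (1.51%) from undifferentiated to differentiating SpG, 1 was higher in pL (0.282%), 0 were lower in eL/L/Z (0.0393%), L/Z/eP (0.433%) or mP/lP (0.603%), 0 were higher in D (0.603%) or in RS (3.26%), and 2 were higher in ES (2.81%), each against the stage before. The median from D to RS was then -0.23. Against undifferentiated SpG, 4 were lower in mP/lP (7.2%), 10 were lower in RS (9.8%) with a median of -0.65, and 0 were higher in Nfya-CKO-labelled SpG (0.774%). Centred on the median gene, the median from undifferentiated to differentiating SpG was -0.32, 2 members were lower in L/Z/eP (2.98%), 1 was lower in mP/lP (2.43%), 0 were higher in D (3.96%) and 2 in RS (13.4%), each against the stage before, and 18 were lower (19%) and 2 higher (26.3%) in RS than in undifferentiated SpG. At 1.5-fold, the counts lower and higher were 10 (14.0%) and 3 (21.4%) from undifferentiated to differentiating SpG, 4 (4.50%) and 2 (12.7%) in eL/L/Z, 6 (13.4%) and 1 (7.09%) in mP/lP, 2 (2.44%) and 2 (14.5%) in D, 11 (19.6%) and 4 (17.8%) in RS, and 3 (17.8%) and 20 (24.0%) in ES, each against the stage before. At that fold 9 were higher in pL (6.01%) and 10 lower in L/Z/eP (15.7%) than in the stage before. Against undifferentiated SpG 25 were lower (32.6%) and 2 higher (22.3%) in mP/lP, 3 were higher in RS (28.6%), and 9 were lower (10.5%) and 3 higher (12.5%) in Nfya-CKO-labelled SpG. Without kinases, repressors and Eif2c5, 2 were lower in L/Z/eP (3.97%). With differentiating SpG as the control, 1 member was lower (10.5%) and 0 higher (6.86%) in RNA, the median was 0.082 in RNA and -0.75 in scATAC-seq, and Eif4a1 turned from -1.35 to 0.29, its control being at 1.81 in place of 5.86. With the mean of both controls 0 were lower (6.29%) and 0 higher (3.04%), and the scATAC-seq median was -0.57. The scATAC-seq median over undifferentiated SpG was -0.18 rescaled without mitochondrial genes and -0.18 centred. Of 54 values of single members, 7 had another sign under at least 1 alternative: Eif4a1 and Eif4b in RNA (0.19 for Eif4b) with differentiating SpG as the control, Eif1a in RS and Eif4e2 in mP/lP when centred (0.022 and 0.030), and in scATAC-seq Eif1b, Eif3h and Eif3m with differentiating SpG as the control (-0.60, -0.045 and -0.43), Eif1b and Eif3m also with the mean of both. Eif4a1 was the only one of them past 2-fold in its main value. Besides the reversal of Eif4a1, 15 values moved by over 1.5-fold, 7 with another pseudocount, namely Eif4e3 in mP/lP (-2.24 with 0.05, -0.57 with 0.5) and in RS (-0.43), Eif2s3x in both (-0.39 and -0.44), Eif1ax (-0.57) and Eif5a2 (-0.91, both in mP/lP), and 8 with another control. No paired analysis was possible because each condition has 1 library per assay and the values come from no test. Replicates could not be left out in turn for the same reason. Depth limits members near a few UMIs, such as Eif4e1b, and the scATAC-seq values of Eif4g1. It also limits Eif2c5 in L/Z/eP, at 0.0036 where 3 UMIs give 0.0023, but less so in undifferentiated SpG, at 0.1 where 3 UMIs give 0.0025.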
